A study of Mus musculus with 8 samples.

Results

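The gene set comprised 10 genes of insulin degradation and insulin-Foxo signalling: *Ide*, *Mme*, *Ece1*, *App*, *Insr*, *Igf1r*, *Irs1*, *Irs2*, *Foxo1* and *Foxo3*. They were selected by gene symbol from the 55536 genes of the count table, with the WT and HAR123-KO difference of *Ide* and *Foxo1* already known. The values given for that difference are therefore a description and not independent evidence. RNA-seq was performed on frontal cortex from 8-week-old mice, with 4 WT and 4 HAR123-KO libraries. HAR123-KO mice carry a CRISPR-Cas9 deletion of the mouse ortholog of HAR123, an enhancer within an intron of *Smg6* whose human sequence changed rapidly. The controls were WT littermates, all strains were backcrossed to C57BL/6J, and the labels name no treatment. The deletion was made by injection of zygotes and was not restricted to a cell type. The labels give neither the sex of the mice nor the number of founder lines.

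Insulin and the insulin-like growth factors bind the receptor tyrosine kinases encoded by *Insr* and *Igf1r*, which phosphorylate the adaptor proteins IRS1 and IRS2 and thereby activate PI3K and Akt. Akt phosphorylates the Foxo transcription factors, which then leave the nucleus, so that Foxo target genes are expressed when insulin signalling is low. The protease encoded by *Ide* cleaves insulin, amylin and the amyloid-beta peptide, and neprilysin (*Mme*) and endothelin-converting enzyme (*Ece1*) also cleave amyloid-beta, which is cut from the product of *App*.

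Sequence immediately upstream of the RefSeq start sites was examined for 9 of the 10 genes, which had 14 annotated start windows of 250 bases between them in GRCm38.p6. The windows of *Ide* and *Foxo1* are shown because these are the genes that differed between genotypes, and that of *Foxo3* because it encodes the closest relative of the Foxo1 protein in the set. Capitals mark CG dinucleotides. The *Ide* window is chr19:37334545-37334794 on the minus strand, the *Foxo1* window is chr3:52268087-52268336 on the plus strand, and the *Foxo3* window is chr10:42276696-42276945 on the minus strand. All are written 5′ to 3′ on the strand of the gene.
Ide: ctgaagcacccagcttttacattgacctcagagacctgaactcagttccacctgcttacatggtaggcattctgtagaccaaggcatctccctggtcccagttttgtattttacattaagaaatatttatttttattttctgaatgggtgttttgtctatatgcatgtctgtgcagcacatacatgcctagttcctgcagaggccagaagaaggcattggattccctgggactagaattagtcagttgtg
Foxo1: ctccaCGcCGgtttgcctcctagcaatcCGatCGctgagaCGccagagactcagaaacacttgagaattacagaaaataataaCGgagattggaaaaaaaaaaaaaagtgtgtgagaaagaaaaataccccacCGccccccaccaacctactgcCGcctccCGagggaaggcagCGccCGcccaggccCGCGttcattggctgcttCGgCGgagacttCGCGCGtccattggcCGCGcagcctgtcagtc
Foxo3: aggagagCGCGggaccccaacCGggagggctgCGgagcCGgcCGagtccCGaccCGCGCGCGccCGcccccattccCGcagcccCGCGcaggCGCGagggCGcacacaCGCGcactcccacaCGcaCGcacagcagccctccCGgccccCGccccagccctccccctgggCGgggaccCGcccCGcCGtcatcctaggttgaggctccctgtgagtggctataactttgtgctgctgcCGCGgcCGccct

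The *Ide* window held 0 CG dinucleotides and 42.8% G and C. The *Foxo1* window held 20 CG dinucleotides and 56% G and C, and the *Foxo3* window held 31 and 76.4%. Across all 32851 RefSeq windows of this length the median was 6 CG dinucleotides and 52.4% G and C, and 7.87% of windows had no CG dinucleotide. The other 13 windows of the gene set held 2 to 42. The RefSeq start of *Ide* lies 3.93 kb upstream of the most upstream protein-coding transcript start in GENCODE, so the window shown is not the one next to that start. It also lies inside the annotated GENCODE gene body, which extends upstream to 37337852 through a transcript that is not protein-coding. The RefSeq and GENCODE starts of *Foxo1* and *Foxo3* nearly coincide. The Foxo core motif GTAAACA, searched on both strands, was in 0 of the 14 windows and in 3.17% of all windows. The cAMP response element TGACGTCA (1.55% of all windows) and the Nr4a motif AAAGGTCA (1.34%) were also in 0 of the 14.

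The total count was 13528251 to 17051001 per library, of which 2786320 to 3732172 came from nuclear protein-coding genes other than *Lars2*. Each pair of libraries of one genotype differed by more than sampling noise, with a chi-square over degrees of freedom of 1.21 to 1.3 where noise alone gives 1, against 1.58 to 1.72 for pairs across genotypes. All 10 genes were kept by the filter on low counts, with raw counts from 64 for *Mme* to 6502 for *App* in a single library. Of 12758 genes tested, 215 (1.69%) had an adjusted p below 0.05, and the median log2 fold change of all genes tested was -0.00.

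*Ide* and *Foxo1* were higher in HAR123-KO frontal cortex, whereas the transcripts of the other amyloid-degrading enzymes, the receptors and the adaptors did not pass the threshold. Thus, 2 of the 10 genes passed the threshold, both upward, where 0.972% of all genes did so. Both also passed the limit on size that the study used for this tissue, an absolute log2 fold change over 0.5, which 0.227% of all genes passed upward. Nothing is read from this share, since the set was chosen with the contrast in view. The normalized counts of 3 genes did not overlap between genotypes (*Ide* and *Foxo1* higher, *Ece1* lower), where 7.67% of all genes did not overlap (4.02% higher and 3.65% lower). An unadjusted p below 0.05 was given to 3 of the 10 (*Ide*, *Foxo1* and *Foxo3*) and to 8.78% of all genes. In the plot of normalized counts, *Ide* and *Foxo1* show a clear gap between genotypes, and the groups of *Ece1* nearly touch.

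**Figure D1:**
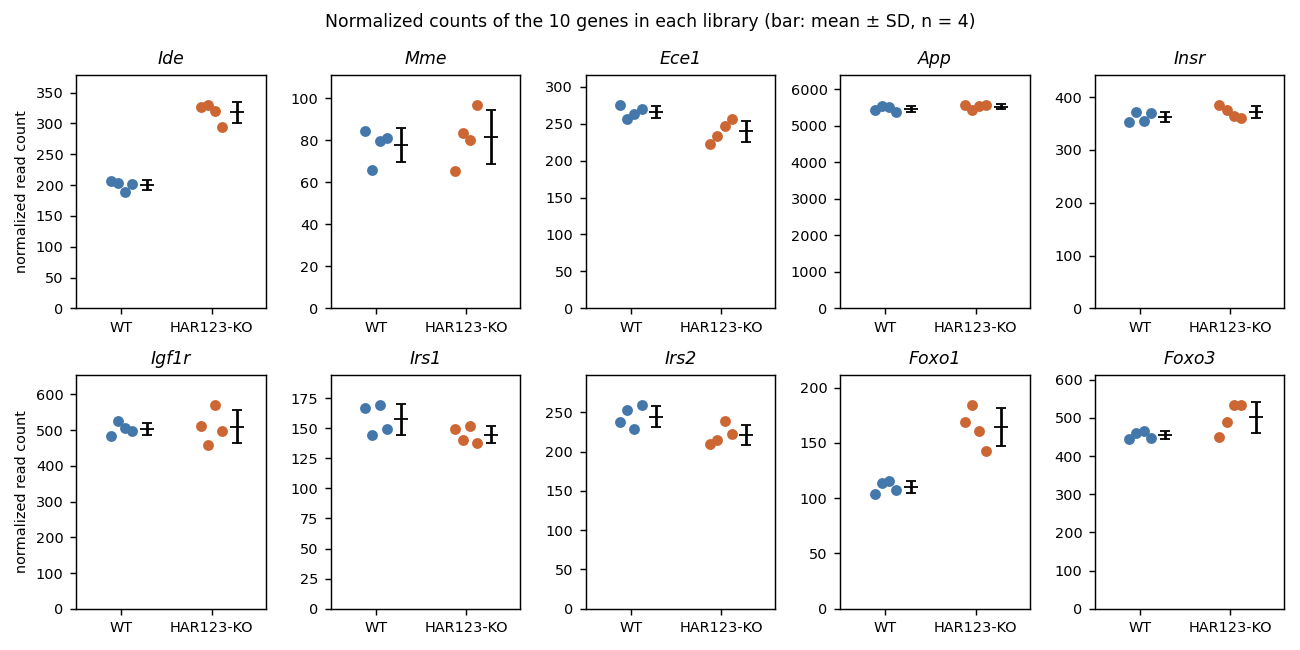
Normalized read counts (y axis, from 0) of each of the 10 genes in the 4 WT and 4 HAR123-KO libraries (x axis). Points are libraries in replicate order, and the bar beside them is the mean ± SD. *Ide* (189 to 207 in WT, 294 to 329.9 in HAR123-KO) and *Foxo1* (104 to 116 and 143 to 184) separate by genotype, and *App* lies between 5371 and 5574 in every library.

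*Ide*, which encodes the insulin-degrading enzyme, is on the minus strand of chromosome 19 at 37268743 to 37337852 (GRCm38). Its normalized counts were 207, 204, 189 and 202 in the WT libraries, and 327, 329.9, 320.5 and 294 in the HAR123-KO libraries. Every HAR123-KO library was above every WT library, and replicate 4 was the lowest of the HAR123-KO libraries. The WT mean was 201 ± 7.99 and the HAR123-KO mean was 318 ± 16.5 (SD, n = 4 each). This is a 1.58-fold higher level (95% interval 1.42 to 1.78), or a log2 fold change of 0.67 ± 0.08 (SE), with an adjusted p of 7.05e-13 in the DESeq2 fit over all genes. *Ide* was the 11th gene by p among the 12758 tested and the 21st by size among the 124 called higher. No exon of *Ide* overlaps an exon of another gene. The ribosomal protein pseudogene *Rpl10-ps6* lies inside the *Ide* gene body on the same strand and had a log2 fold change of 0.22 ± 0.15 (adjusted p = 0.761 by DESeq2). Its normalized counts did not overlap between genotypes, at 68.7 to 76.2 in WT and 78.8 to 95.7 in HAR123-KO.

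*Mme*, which encodes the membrane protease neprilysin, had normalized counts of 84.4, 65.9, 79.6 and 81.3 in WT and 65.5, 83.7, 80.1 and 96.8 in HAR123-KO. The groups overlapped fully, and *Mme* had the fewest counts of the 10 genes. Its log2 fold change was 0.07 ± 0.15, and the interval of 0.855-fold to 1.28-fold is wide enough to hold a moderate change either way. *Ece1*, which encodes an endothelin-converting enzyme, had 275, 256, 263 and 269 in WT and 223, 233, 246 and 256 in HAR123-KO. The HAR123-KO libraries lay below the WT libraries, but the lowest WT and the highest HAR123-KO library differed by less than 1 count. The log2 fold change of *Ece1* was -0.15 ± 0.08, with an adjusted p of 0.627 by DESeq2. *App*, the amyloid precursor gene, had 5437, 5561, 5509 and 5371 in WT and 5564, 5432, 5560 and 5574 in HAR123-KO. It was the most deeply counted of the 10 genes, and the interval of its difference ran from 0.98-fold to 1.04-fold. Hence, among the genes for amyloid-beta production and breakdown in the set, only *Ide* passed the threshold, and the difference between *Ide* and the other enzymes was not itself tested.

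Neither receptor gene passed the threshold. *Insr*, which encodes the insulin receptor, had normalized counts of 352, 372, 355 and 369 in WT and 385, 376, 365 and 361 in HAR123-KO. *Igf1r*, which encodes the IGF-1 receptor, had 484, 524, 507 and 497 in WT and 511, 459, 569 and 497 in HAR123-KO. Both genes overlapped between genotypes. The intervals of the difference were 0.937-fold to 1.13-fold for *Insr* and 0.93-fold to 1.1-fold for *Igf1r*. The adaptor genes had negative fold changes that did not pass the test. *Irs1* had 167, 144, 169 and 149 in WT and 149, 139.8, 152 and 138 in HAR123-KO, a log2 fold change of -0.12 ± 0.11 (adjusted p = 0.875 by DESeq2). *Irs2* had 238, 253, 229 and 259 in WT and 209.9, 215, 239 and 222 in HAR123-KO, a log2 fold change of -0.14 ± 0.09 (adjusted p = 0.713 by DESeq2). For both adaptors 1 or more HAR123-KO libraries lay within the WT range.

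*Foxo1*, which encodes a transcription factor that Akt keeps out of the nucleus, is on the plus strand of chromosome 3 at 52268336 to 52353221. Its normalized counts were 104, 114, 116 and 107 in WT and 169, 184, 161 and 143 in HAR123-KO. Every HAR123-KO library was again above every WT library, and replicate 4 was again the lowest HAR123-KO library. The WT mean was 110.2 ± 5.93 and the HAR123-KO mean was 164 ± 17.1 (SD, n = 4 each). The level was 1.49-fold higher (95% interval 1.27 to 1.74), a log2 fold change of 0.57 ± 0.11 (SE) with an adjusted p of 1.02e-04 by DESeq2. *Foxo1* was the 69th gene by p and the 25th by size among those called higher. *Foxo3*, which encodes a second Foxo factor regulated in the same way, had 446, 461, 466 and 447 in WT and 449, 489.7, 533 and 533 in HAR123-KO. In this case 1 HAR123-KO library lay inside the WT range and 3 lay above it. The log2 fold change of *Foxo3* was 0.14 ± 0.06 (adjusted p = 0.438 by DESeq2), with an interval of 1.01-fold to 1.2-fold before any adjustment for the number of genes. Genes on the opposite strand overlap exons of *App*, *Irs1*, *Irs2* and *Foxo1*, but they had means of at most 2.35 normalized counts.

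The levels of the genes were then compared per length, as counts per kb of exon, with each library scaled to 1000000 nuclear protein-coding counts. *App* was the highest in WT cortex, at 134 ± 1.84, above 99.0% of the protein-coding genes with a count in any library. It was followed by *Foxo3* (19.1 ± 0.365), *Ece1* (15.9 ± 0.508), *Irs2* (12.3 ± 0.718), *Igf1r* (9.52 ± 0.301), *Ide* (8.49 ± 0.365), *Insr* (8.37 ± 0.229), *Irs1* (5.46 ± 0.436), *Foxo1* (4.04 ± 0.205) and *Mme* (2.14 ± 0.228; all SD, n = 4). Of these neighbours in the order, *Ide* and *Insr* overlapped in their WT libraries and the rest did not. In HAR123-KO cortex *Ide* stood at 13.4 ± 0.702, 4th of the 10 in place of 6th, with libraries (12.4 to 14) that overlapped those of *Ece1* (13.4 to 15.4). *Foxo1* stood at 6.01 ± 0.629 in HAR123-KO, 8th in place of 9th, with libraries (5.23 to 6.73) that overlapped those of *Irs1* (4.8 to 5.28). The plot of level per length shows that *Foxo1* remained below *Foxo3* in every library (5.23 to 6.73 against 18.9 to 22.4 in HAR123-KO).

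**Figure D2:**
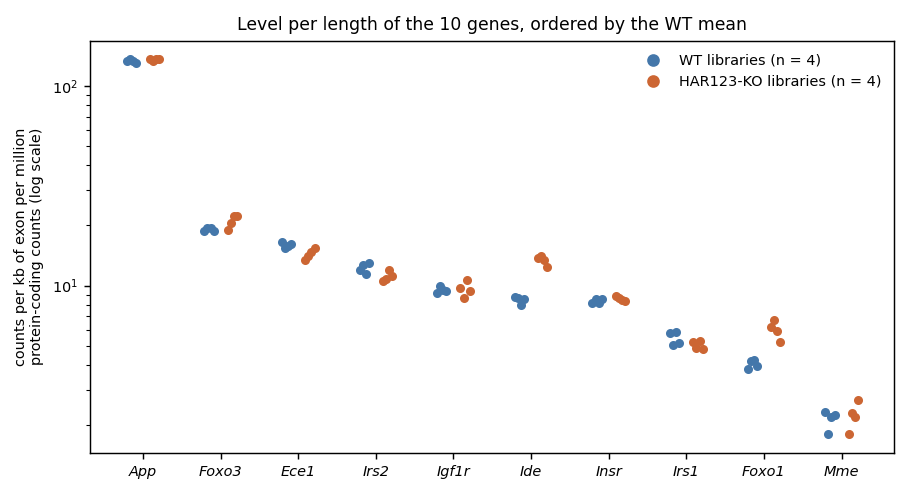
Level of each gene in counts per kb of exon after scaling to 1000000 protein-coding counts (y axis, log scale), ordered along the x axis by the WT mean. Points are libraries (4 per genotype); *Ide* moves from beside *Insr* (8.37 in WT) to beside *Ece1* (14.4 in HAR123-KO), and *App*, at 134 in WT, is 7.0 times the next gene.

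Markers of cell types and neighbouring structures also differed between genotypes in the same libraries as *Ide* and *Foxo1*. The tissue label was checked first: the summed counts of 10 markers of cortical excitatory neurons were 21022 to 21485 in WT and 19590 to 19974 in HAR123-KO, so these markers were detected at high counts in every library. The list was lower in HAR123-KO, with a ratio of 0.927, all 10 means lower and 4 of the 10 called lower, where 0.713% of all genes were. The summed counts of 13 markers of striatal projection neurons were 6286 to 6415 in WT and 8203 to 8303 in HAR123-KO, a ratio of 1.3. The means of 12 of the 13 were higher in HAR123-KO and 10 were called higher, where 0.972% of all genes were. The sums of 15 choroid plexus markers were 980.1 to 1020 in WT and 1941 to 2043 in HAR123-KO, a ratio of 2.0, and the means of all 15 were higher. Of these 15 markers 12 fell below the filter on low counts, and the 3 tested were called higher with log2 fold changes of 0.43 to 3.24, so the ratio of the sum does not stand for each marker. The 8 oligodendrocyte markers had a ratio of 1.13 (6 means higher, 4 called higher). The 7 microglia markers had a ratio of 0.952 and overlapped between genotypes. Of these 7 markers 6 were tested, with 0 called by DESeq2 and 0 with an unadjusted p below 0.05. Sums were lower in HAR123-KO for claustrum and layer 6b (6 markers, 5 means lower, 5 tested, 2 called lower, 682 to 779 against 516 to 546). They were also lower for endothelial cells (11 markers, 10 tested, 1 called lower, 518 to 574 against 418 to 437). For meningeal fibroblasts the sums were 185 to 229.7 against 161 to 184. Of these 8 markers 6 were tested, with 0 called by DESeq2 and 0 with an unadjusted p below 0.05. Astrocytes also had lower sums (7 markers, 3 called lower, ratio 0.928). No marker was at 0 in all libraries. The marker lists were chosen with earlier results of these data known. They hold genes that the study reported as changed in this tissue, such as *Penk* and *Ttr*. Nothing is therefore read from the counts of markers called. The part of these cell types in the *Ide* and *Foxo1* results was not tested. In bulk tissue, more cells of a type and more RNA per cell cannot be told apart.

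**Figure D3:**
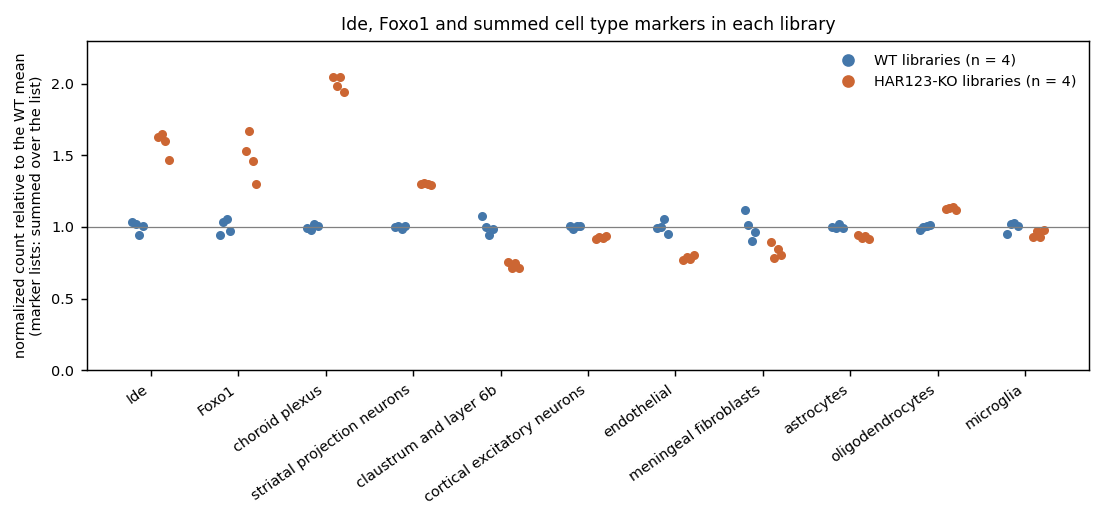
Normalized counts of *Ide* and *Foxo1* and summed counts of 9 marker lists, each divided by its WT mean (y axis, from 0), in the 4 WT and 4 HAR123-KO libraries. Choroid plexus (ratio 2.0), *Ide*, *Foxo1*, striatal projection neurons (1.3) and oligodendrocytes (1.13) lie above 1 in HAR123-KO, and claustrum and layer 6b (0.732) and endothelial markers (0.785) lie below it.

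The other genes of the pathway were taken from a list of 113 genes in 10 functional groups, of which 91 passed the filter on low counts and 6 had no count in any library. A single gene of the 91 was called, against 1.69% of all genes tested, and the median log2 fold change was 0.02 (50 higher, 41 lower), beside -0.00 for all genes. The libraries of 6 of the 91 did not overlap between genotypes (5 higher, 1 lower), against 7.67% of all genes. These were *Aplp1*, *Pik3ip1*, *Sgk1*, *Sgk3* and *Pdpk1*, which were higher, and *Sh2b2*, which was lower (18.6 to 23.7 against 13.3 to 17.6 normalized counts). *Pdpk1* had 677 to 724 normalized counts in WT and 727 to 754 in HAR123-KO. *Sgk1*, *Sgk3*, *Pdpk1* and *Sh2b2* were named after their values were seen, and none of these 4 was called. The gene called was *Aplp1*, which encodes an App-like membrane protein. Its normalized counts ran from 2797 to 2964 in WT and from 3069 to 3130 in HAR123-KO, a log2 fold change of 0.11 ± 0.03 (adjusted p = 0.0106 by DESeq2). The groups did not overlap, but the change was small and the call was lost without any 1 of 5 libraries (WT 1, 2 or 4 and HAR123-KO 1 or 3), with adjusted p values of 0.0726 to 0.114.

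Upstream of the receptors, *Ins1* and *Ins2*, the insulin genes, had no count in any library, and of the 4 ligand genes only *Igf1* passed the filter (log2 fold change -0.15 ± 0.24, or -0.0004 without HAR123-KO replicate 4). None of the 6 IGF binding protein genes tested was called. *Igfbp3*, which encodes a carrier of IGF-1, had the largest difference among them, -0.35 ± 0.30. It was -0.19 without HAR123-KO replicate 3 and -0.58 without HAR123-KO replicate 4. *Igf2r*, which encodes the receptor that clears IGF-2, had -0.03 ± 0.08. Among the 9 adaptor genes tested other than *Irs1* and *Irs2* the values ran from -0.45 to 0.17, and *Gab1*, which encodes a docking protein, was the most different with a mean of at least 20 counts (0.17 ± 0.12, or 0.10 without HAR123-KO replicate 2). The 19 genes for PI3K, Akt and mTOR kinases lay between -0.10 and 0.14 with a median of 0.04. Among them *Pik3cb*, a catalytic subunit of PI3K, had 0.14 ± 0.11 (0.08 without WT replicate 3) and none passed the threshold. Of 10 genes that restrain the pathway, *Pik3ip1*, which encodes an inhibitor of PI3K, had the largest difference, at 56.8 to 69.5 normalized counts in WT and 74 to 92.2 in HAR123-KO. The groups did not overlap, but the log2 fold change of 0.38 ± 0.15 did not pass the threshold (adjusted p = 0.317 by DESeq2).

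Downstream, 0 of the 8 genes for other Foxo factors and regulators of Foxo activity were called by DESeq2 (1.69% of all genes), and 1 had an unadjusted p below 0.05 (8.78% of all genes). All 8 log2 fold changes were above 0, from 0.04 to 0.32 with a median of 0.19, where 49.4% of all genes tested were above 0. The list was chosen with earlier results known, so nothing is read from this count. *Foxo4*, another Foxo gene, had 57.4, 47.4, 42.4 and 52.4 normalized counts in WT and 50.2, 79.9, 50.2 and 67 in HAR123-KO, and the groups overlapped (0.32 ± 0.18, adjusted p = 0.669 by DESeq2). Without HAR123-KO replicate 2 the log2 fold change was 0.17. The 2 genes of this group whose libraries did not overlap, against 4.02% of all genes in this direction, were the kinase genes *Sgk1* (148 to 162 against 179.7 to 184) and *Sgk3* (84.4 to 101 against 102 to 118). The encoded kinases phosphorylate Foxo proteins, as Akt does. Of 17 known Foxo target genes tested, 0 were called by DESeq2 and 0 had an unadjusted p below 0.05, where the shares over all genes were 1.69% and 8.78%. In a list of this size a count of 0 is near those shares. The means of 5 were higher and of 12 lower in HAR123-KO, and their median log2 fold change was -0.05. The largest difference among them was that of *Txnip*, which encodes a thioredoxin-binding protein, at -0.24 ± 0.22 (-0.11 without HAR123-KO replicate 1). Of 7 other insulin and amyloid degrading proteases, *Ace*, which encodes angiotensin-converting enzyme, differed most (0.33 ± 0.15, adjusted p = 0.467 by DESeq2). Among the 13 genes for the App family and its secretases, *Psenen*, a subunit gene of gamma-secretase, differed most (0.31 ± 0.16, adjusted p = 0.557 by DESeq2).

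The genes next to *Ide* and *Foxo1* were examined to ask whether their neighbourhoods differed as well. Of 15 annotated genes within 250 kb of *Ide*, 4 averaged 20 or more normalized counts, and none of these was called. Besides *Rpl10-ps6*, they were *Cpeb3*, an RNA-binding protein gene (-0.01 ± 0.07), *March5*, a mitochondrial ubiquitin ligase gene (0.09 ± 0.11), and *Exoc6*, an exocyst subunit gene (-0.06 ± 0.10). Of 12 genes within 250 kb of *Foxo1*, 2 had such a mean and neither was called. *Maml3*, which encodes a Notch coactivator, had -0.10 ± 0.14 (-0.0015 without WT replicate 3). The unclassified transcript *C130089K02Rik* had -0.46 ± 0.26 (adjusted p = 0.647 by DESeq2), with 26.3 to 32.6 normalized counts in WT and 17.6 to 24.7 in HAR123-KO. *Ide* and *Foxo1* lie on chromosomes 19 and 3, and the enhancer lies in *Smg6*, which is on another chromosome.

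**Figure D4:**
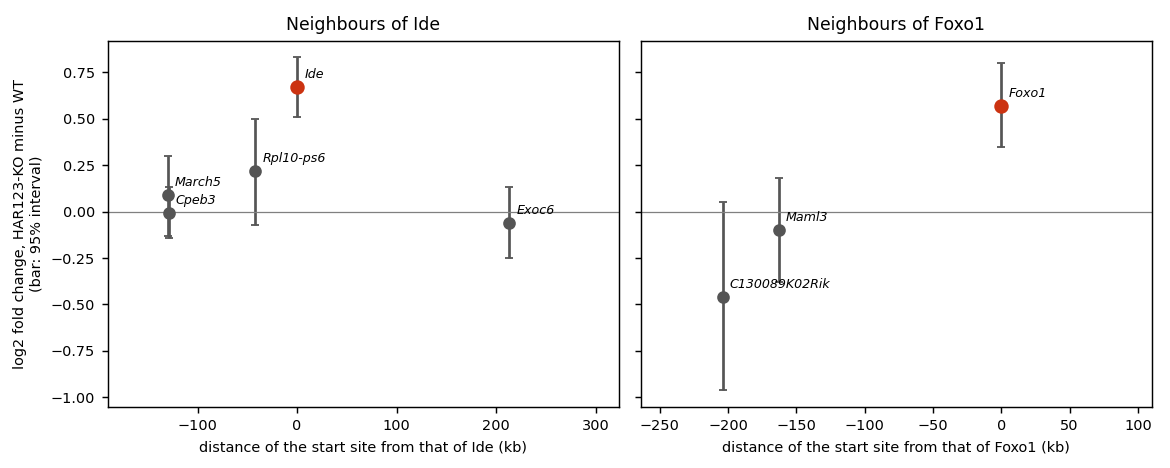
Log2 fold change, HAR123-KO minus WT (y axis, bars 95% intervals), against the distance in kb of the annotated start site from that of *Ide* (left) or *Foxo1* (right), for genes within 250 kb that averaged 20 or more normalized counts. *Ide* (0.67) and *Foxo1* (0.57), in red, lie above their neighbours, whose values run from -0.46 to 0.22.

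Finally, the genes whose pattern over the 8 libraries was most like that of *Ide* and *Foxo1* were listed by Pearson correlation of log2 normalized counts, among 9280 genes with a mean of at least 50. The libraries fall into 2 genotypes, so a gene with a steady difference between them scores high. For *Ide* these were *Penk* (r = 0.995), *mt-Rnr1* (0.993), *Ttr* (0.987), *Rgs9* (0.985) and *Rn7sk* (0.981). *Penk* and *Rgs9* belong to the striatal list above, *Ttr* belongs to the choroid plexus list, and *mt-Rnr1* and *Rn7sk* are noncoding RNAs. For *Foxo1* these were *mt-Co1* (0.987), *Gm10925* (0.979), *Ptk2b* (0.972), *Kcnd2* (0.971) and *2610044O15Rik8* (0.970). Their log2 fold changes were small, from 0.07 for *mt-Co1* to 0.31 for *2610044O15Rik8*, whereas those most like *Ide* ran from 0.16 for *mt-Rnr1* to 3.24 for *Ttr*. The coefficients describe these 8 libraries, which were normalized together.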

How the data were processed

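The authors extracted total RNA from frontal cortex, removed ribosomal RNA, prepared directional libraries (NEBNext Ultra II) and sequenced paired ends. They aligned reads to GRCm38 with STAR 2.5.2b and deposited raw read counts per gene, made with featureCounts over exons. Counting settings for strand and multiply mapped reads are not given in the sources used here, so antisense and near-identical genes may share counts. The table held 55536 genes and 0 unused columns, and all identifiers were matched to GENCODE symbols with the same coordinates. Groups and replicate numbers came from sample titles. Whether libraries came from separate mice is not stated in the labels, so p-values measure the spread between these libraries.

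Genotypes were compared by the DESeq2 1.42.0 Wald test in R 4.3.3. Size factors were medians of ratios and the model held genotype alone. P-values of the 12758 genes that passed the independent filter (alpha 0.1, which removed genes with a mean below 17.6) were adjusted by the Benjamini-Hochberg method. A gene was called at an adjusted p below 0.05. The limits the study used for this tissue (adjusted p below 0.05 and absolute log2 fold change over 0.5) and its general limits (0.01 and 1) were alternatives. So were edgeR 4.0.16 quasi-likelihood, limma-voom (limma 3.58.1), TMM factors, total counts as size factors, and medians of ratios over nuclear protein-coding genes alone. Further alternatives were keeping genes with 10 counts in at least 4 libraries, omitting the independent filter, a replicate block, and leaving out each library. The fit was checked on simulated data. The 10 genes, the pathway list and the marker lists were chosen with earlier results of these data known.

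Genes named were the 10, every pathway gene called, the most different gene of each pathway group with a mean of at least 20, genes within 250 kb of *Ide* or *Foxo1* with that mean, and the 5 genes most like each of *Ide* and *Foxo1*. Outside this rule, *Sgk1*, *Sgk3*, *Pdpk1* and *Sh2b2* were named after their values were seen, as were *Ins1* and *Ins2*, which had no counts. Levels per length used the exon length in the table. Promoter windows came from RefSeq (GRCm38.p6), which gave none for *Insr*.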

Additional observations from a re-analysis of the deposited data

Results flagged for a closer look

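Each of the 10 genes was examined for a library far from the others of its genotype, in 20 groups of 4 libraries, and 1 was found. The normalized count of *App* in HAR123-KO replicate 2 was 5432, whereas the other 3 HAR123-KO libraries had 5560 to 5574. This gap was 0.901 of the range of the group, above Dixon's 95% critical value for 4 samples, and chance flags about 1 in 20 groups. The library lay inside the WT range of 5371 to 5561 for *App*, and without it the log2 fold change of *App* was 0.03.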

How the results depend on the processing

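*Ide* (log2 fold change 0.64 to 0.71, adjusted p at most 1.60e-07) and *Foxo1* (0.51 to 0.63, adjusted p at most 0.00858) were called in all 15 alternative fits without a replicate block. At the limits of the study for this tissue both were called, and at its general limits 0 of the 10 genes were. Over all genes tested, 215 were called, against 331 by edgeR, 38 at the limits for this tissue, 3 at the general limits and 133 to 185 with 1 library left out. The low end came without WT replicate 1, and 142 were called without HAR123-KO replicate 3. The 2 genes called of the 10 were called without any 1 library (2 to 2). In the pathway list the call of *Aplp1* was the 1 made, and 0 were made at either limit of the study and 0 to 1 with 1 library left out. With the replicate block 22 of all genes were called, 1 of the 10 genes and 0 of the pathway list, with *Ide* at a log2 fold change of 0.66 (adjusted p = 0.00147 by DESeq2) and *Foxo1* at 0.57 (adjusted p = 0.463). Same-numbered libraries did not deviate together (correlations of -0.0168 to 0.0175 over 8834 genes), and 1 of 4 numbers was the best match of its own number, so the numbers do not pair the samples.

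Fold changes that changed sign were near 0 and none was called. They were *Mme* (-0.0038 without WT replicate 2 and -0.02 without HAR123-KO replicate 4, range -0.02 to 0.15 with 1 library left out), *Igf1r* (-0.04 without HAR123-KO replicate 3, range -0.04 to 0.07 with 1 library left out), *Igf2r* (0.0091 with total counts as size factors and 0.0074 without WT replicate 2, range -0.06 to 0.0074 with 1 library left out), *Exoc6* (0.0059 without HAR123-KO replicate 2, range -0.10 to 0.0059 with 1 library left out) and *Cpeb3* (0.03 with total counts, and 0.01, 0.0012, 0.02 and 0.0043 without WT replicates 1 and 2 and HAR123-KO replicates 2 and 3, range -0.03 to 0.02 with 1 library left out). The cause was not tested. With 1 library left out, *Igf1* ran from -0.24 to -0.0004, *Igfbp3* from -0.58 to -0.19, *Txnip* from -0.33 to -0.11 and *Foxo4* from 0.17 to 0.41, none of them called. The depth of 2786320 to 3732172 protein-coding counts limits the rarer genes: the SE was 0.15 for *Mme* and 0.02 for *App*.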
